A study of Saccharomyces cerevisiae with 6 samples.

Results

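Messenger RNA of the nuclear genes for the mitochondrial respiratory chain and the ATP synthase was compared between a tra1-2ts and a TRA1 wild-type strain of the budding yeast Saccharomyces cerevisiae. The gene set was a list of 37 named genes, and all 37 were found as probe sets that name exactly 1 gene, among 5551 genes tested. It holds 4 genes of complex II, 9 of complex III, 9 of complex IV, 13 of the ATP synthase (complex V, with its inhibitor gene INH1) and 2 electron carriers, NDI1 and CYC1. Where a gene had more than 1 probe set the brightest was used, which concerned ATP14 alone.

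Tra1 is a very large protein found in both SAGA and NuA4, which are coactivators that acetylate histones. Both strains were MATa with the marker alleles leu2∆1, his3∆200, trp1∆63, ade2-101, lys2-801 and ura3-52, and in both the chromosomal TRA1 was disrupted with HIS3. By the labels they differ in the centromeric LEU2 plasmid that supplies Tra1, which carried the temperature-sensitive allele tra1-2ts in one and TRA1 in the other. Cells were grown in YPD, a rich glucose medium, at 30 °C and shifted to 37 °C, and 1 array per strain was hybridized at each of 60, 90 and 120 min, which gives 6 arrays, 3 per strain. The 3 times of a strain serve as its replicates. Whether each array had a culture of its own is not given in the labels, and p-values therefore reflect only how these arrays vary, which may be partly technical. Cells kept at 30 °C were not analysed here, and what the strains differed in before the shift was not tested.

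The respiratory chain passes electrons from NADH and succinate through ubiquinone to cytochrome c and oxygen, and the proton gradient that complexes III and IV build drives the ATP synthase. Budding yeast has no complex I and uses single-subunit NADH dehydrogenases such as Ndi1 in its place. Most subunits are encoded in the nucleus, while a few are encoded in mitochondrial DNA. On glucose many of these nuclear genes are repressed, and the Hap2/3/4/5 activator and the heme-responsive factor Hap1 are their best known regulators.

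Values are log2 signals after RMA (robust multi-array average), which makes the distributions of all arrays alike, so a gene's difference is read against the other genes of the array. Differences are tra1-2ts minus wild type on this scale, where 1 is a 2-fold difference. Genes were called with limma at a Benjamini-Hochberg adjusted p under 0.05 over all tested genes. Array medians lay between 6.14 and 6.20, and arrays correlated more closely within a strain (Pearson's r of 0.992 to 0.996 over probe sets) than between strains (0.971 to 0.980). TRA1 itself read 9.35, 9.38 and 9.38 in tra1-2ts at 60, 90 and 120 min, against 8.10, 8.55 and 8.68 in wild type, which does not tell the alleles apart. The lowest single reading among the 37 genes was 5.26, above the 3.93 of the brightest mouse control probe set. In RNA pooled from a culture, fewer cells that express a gene and less of its RNA per cell cannot be told apart. Of the a-specific mating genes 6 of 6 were higher in tra1-2ts (median difference 1.38), beside 18.3% of all genes called higher. Of 4 alpha-specific genes, all with positive differences, SAG1 (1.41-fold) and MF(ALPHA)1 (1.36-fold) were called higher (limma adjusted p = 0.00599 and 0.0156), and STE3 and MF(ALPHA)2 did not pass. STE3 read 3.64 to 3.81 in tra1-2ts and 3.33 to 3.66 in wild type, under the mouse control level. Some marker genes differed too, with LEU2, carried on the plasmid of both strains, 2.09-fold lower and LYS2 2.05-fold higher in tra1-2ts (limma adjusted p = 0.000246 and 0.000726). URA3 was also called lower, at signals under the mouse control level, while HIS3, ADE2 and TRP1 did not pass. The part of such strain differences in the respiratory values was not tested.

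Respiratory chain and ATP synthase genes differed in both directions, with more of them higher in tra1-2ts. Of the 37, 12 were higher, 4 were lower and 21 did not pass. The 12 were CYT1, RIP1, QCR6, QCR7, QCR8 and QCR9 of complex III, COX5A, COX7 and COX12 of complex IV, and ATP1, ATP3 and ATP7 of the ATP synthase. The 4 lower genes were COX5B, INH1, QCR2 and ATP14. The share called higher was 32.4%, beside 18.3% of all tested genes. The share called lower was 10.8%, beside 22.3%, and the share called in either direction was 43.2%, close to the 40.6% of all genes. The median difference was 0.20 over the 37 genes and 0.0011 over all 5551, and 29 of 37 differences were positive. These counts describe the list, which was not tested as a set. With quantile normalization over the tested genes the split was 18 higher and 3 lower. All genes also moved upwards in that setting, to 1170 higher and 1145 lower in place of 1014 and 1237. Without both 90 min arrays 5 were higher and 3 lower, at a background of 18.1% of all genes called, and CYT1, QCR7, QCR8, COX5A, COX7, COX12, ATP3 and ATP14 no longer passed. Without both 60 min arrays QCR2 and ATP14 no longer passed, and without both 120 min arrays QCR2, CYT1, ATP3 and ATP14 did not.

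The changes were mostly small. Only COX5B differed by at least 2-fold, 1 of 37 genes or 2.70%, beside 5.35% of all genes. The 3 arrays of one strain did not overlap the 3 of the other for 24 of 37 genes (64.9%), which holds for 53.8% of all genes. At all 3 times 28 of 37 genes (75.7%) differed in the same direction, beside 69.1% of all genes.

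**Figure D1:**
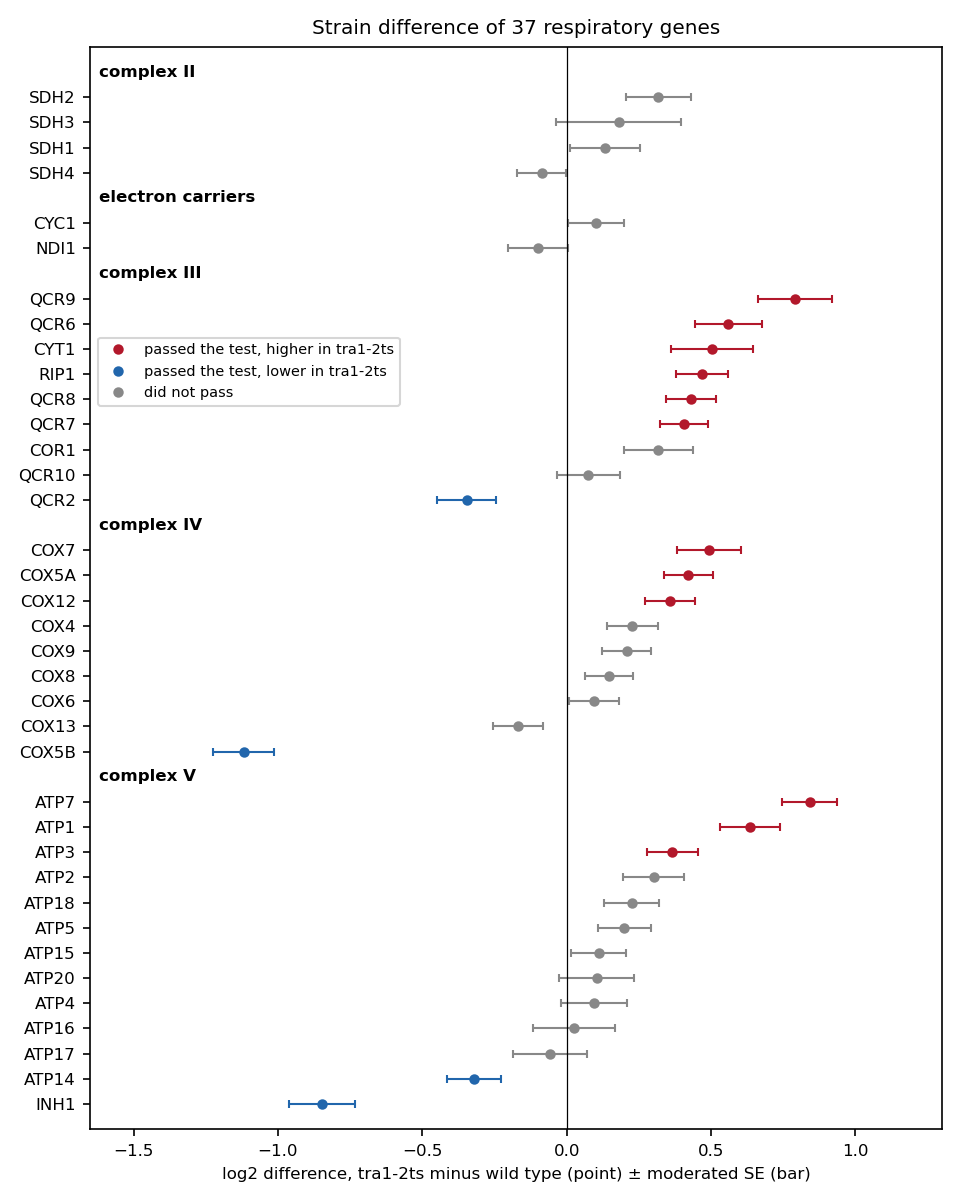
Log2 difference, tra1-2ts minus wild type, for each of the 37 genes (points, mean over 3 arrays per strain; bars, limma's moderated standard error), grouped by complex. In complex III 6 points are called higher and QCR2 is called lower, and COX5B and INH1 lie farthest to the left, at -1.12 and -0.85.

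Complex III, the cytochrome bc1 complex that carries electrons from ubiquinol to cytochrome c, held the largest share of rises among the complexes. Of its 9 genes 6 were higher, 1 was lower and 2 did not pass, with a median difference of 0.43. The counts called higher were 0 of 4 in complex II, 6 of 9 (66.7%) in complex III, 3 of 9 (33.3%) in complex IV and 3 of 13 (23.1%) in complex V, beside 18.3% of all genes. The share in complex V was thus near that of all genes, and differences between complexes were not tested.

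CYT1 and RIP1 encode the catalytic proteins of complex III that come from the nucleus, cytochrome c1 and the Rieske iron-sulfur protein. RIP1 read 9.71, 9.52 and 9.70 in tra1-2ts at 60, 90 and 120 min, against 9.14, 9.19 and 9.20 in wild type. All 3 tra1-2ts arrays were above all 3 wild-type arrays, and the gene rose by 0.47 ± 0.09 (SE; 1.39-fold, limma adjusted p = 0.00362). A second probe set for RIP1 among the array's controls, kept out of the fit, gave 8.06, 8.09 and 7.70 in tra1-2ts and 7.69, 7.47 and 7.25 in wild type. Its difference of 0.48 was close to that of the main probe set, and its groups were separate by a narrow margin (exact permutation p = 0.10, the smallest that 3 arrays against 3 allow).

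CYT1 read 7.29, 7.27 and 7.39 in tra1-2ts, against 7.05, 6.90 and 6.49 in wild type. The tra1-2ts readings lay close together while the wild-type ones were lower at each later time, so the strains were farthest apart at 120 min. The difference was 0.50 ± 0.14 (SE; 1.42-fold, limma adjusted p = 0.0217). This call ended when the tra1-2ts 90 min array (limma adjusted p = 0.0563) or the tra1-2ts 120 min array (0.0652) was left out.

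The small supernumerary subunits of complex III, which carry no redox centre, were higher with 1 exception. QCR9 changed most, at 8.54, 8.63 and 8.56 in tra1-2ts, against 7.49, 7.96 and 7.91 in wild type. The low wild-type reading at 60 min widened the gap there, and the difference over all arrays was 0.79 ± 0.13 (SE; 1.73-fold, limma adjusted p = 0.00173). QCR6, the acidic hinge protein, read 8.77, 8.97 and 9.07 in tra1-2ts, against 8.41, 8.50 and 8.21 in wild type. It was 1.47-fold higher (limma adjusted p = 0.00521). QCR7 read 9.38, 9.45 and 9.49 in tra1-2ts, against 9.00, 9.07 and 9.02 in wild type. QCR8 read 8.20, 8.13 and 8.03 in tra1-2ts, against 7.68, 7.67 and 7.73 in wild type. Both pack against cytochrome b in the complex, and they rose 1.33-fold and 1.35-fold (limma adjusted p = 0.00495 and 0.00455). QCR10, the remaining small subunit, differed by 0.07, with a 95% interval of -0.17 to 0.32, and its groups overlapped.

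The core proteins of complex III, which project into the matrix, did not move together. QCR2 read 8.04, 8.27 and 8.04 in tra1-2ts, against 8.55, 8.38 and 8.47 in wild type. It was lower at each time, by 0.35 ± 0.10 (SE; 1.27-fold lower, limma adjusted p = 0.0238). Its call ended without the tra1-2ts 60 min (limma adjusted p = 0.0722), tra1-2ts 120 min (0.0768), wild-type 60 min (0.0599) or wild-type 120 min array (0.0530), and with quantile normalization (0.0729). COR1, its partner, read 7.18, 7.16 and 6.97 in tra1-2ts, against 6.98, 6.79 and 6.59 in wild type. The difference of 0.32 had the opposite sign and did not pass (limma adjusted p = 0.0628). It passed when time was fitted as a paired block (0.0239) and without the wild-type 60 min array (0.0225).

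**Figure D2:**
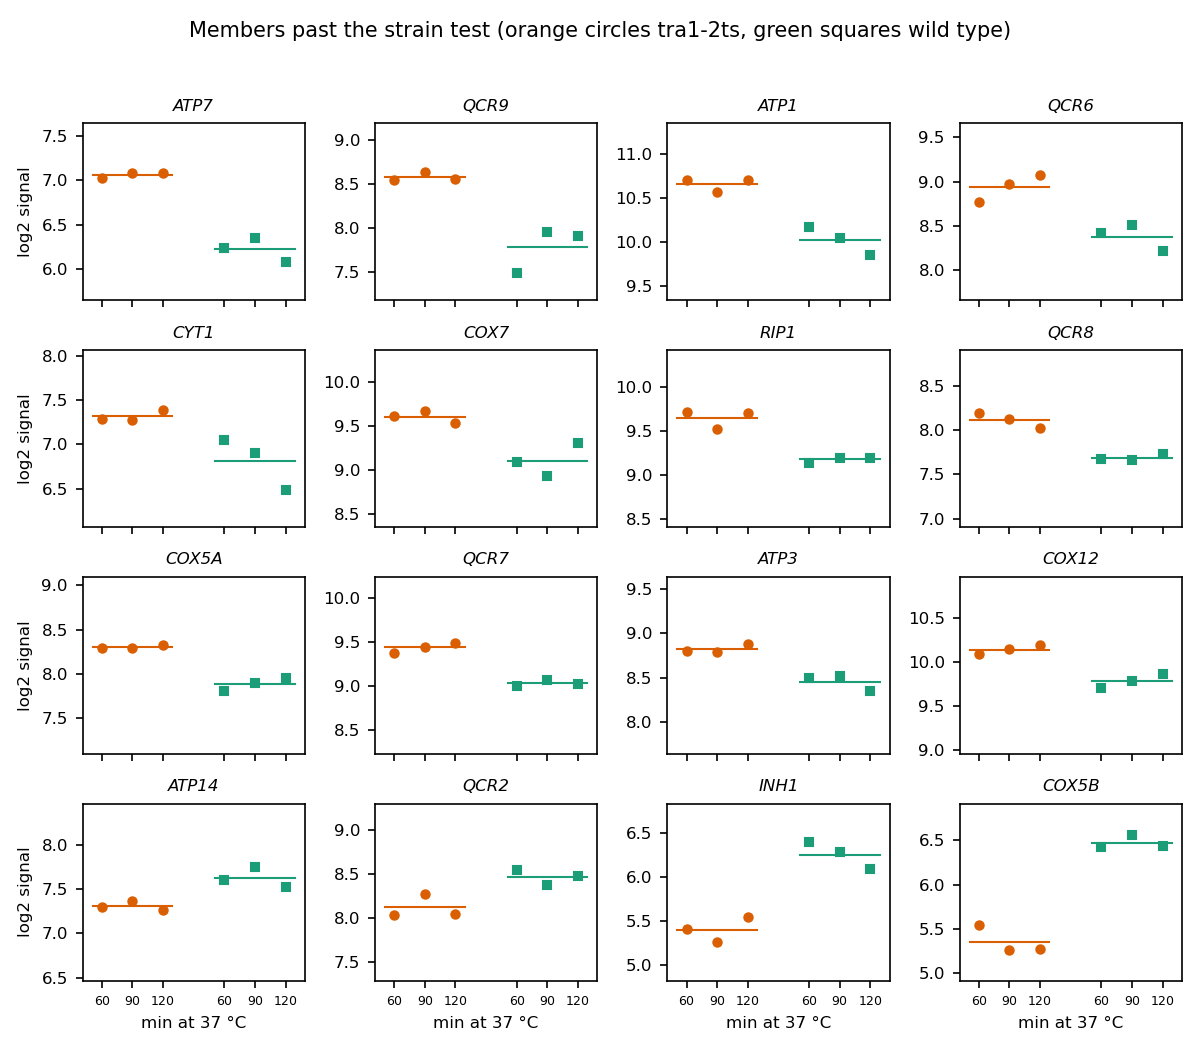
Log2 signal of the 16 genes past the strain test in each array, by time at 37 °C (orange circles tra1-2ts, green squares wild type; lines, strain means; each panel spans 2 log2 units). In all 16 panels the arrays of the strains do not overlap, and ATP14, QCR2, INH1 and COX5B are lower in tra1-2ts.

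Complex IV, cytochrome c oxidase, was led by opposite changes of its isoform genes. Subunit 5 is made either from COX5A, the form of aerated cells, or from COX5B, the form of cells short of oxygen, and one of them is needed for an active enzyme. COX5A (YNL052W) read 8.30, 8.30 and 8.33 in tra1-2ts, against 7.81, 7.90 and 7.95 in wild type. COX5B (YIL111W) read 5.54, 5.26 and 5.27 in tra1-2ts, against 6.42, 6.56 and 6.44 in wild type. Neither gene's groups overlapped, COX5A being higher and COX5B lower in tra1-2ts at every time. COX5A rose by 0.42 ± 0.08 (SE; 1.34-fold, limma adjusted p = 0.00436), and COX5B fell by 1.12 ± 0.11 (SE; 2.17-fold lower, limma adjusted p = 0.000171). COX5B had the largest difference of the 37 genes and kept its call in all 17 alternatives run at this threshold, while COX5A lost its own without both 90 min arrays (limma adjusted p = 0.0656).

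The balance of the isoforms was followed as the log2 ratio of the COX5B to the COX5A signal within each array. The ratio was -2.75, -3.04 and -3.06 in tra1-2ts at 60, 90 and 120 min, against -1.39, -1.34 and -1.51 in wild type. Signals of different probe sets are not on a common scale, so only the change of this ratio between strains is read. It was 1.54 lower in tra1-2ts, a 2.91-fold shift from COX5B towards COX5A, and larger than the spread within either strain (SD 0.17 in tra1-2ts and 0.09 in wild type). The two-sided exact permutation test gave p = 0.10, the smallest that 3 arrays against 3 allow.

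Of the other complex IV genes, COX7 and COX12, which encode small nuclear subunits, were higher. COX7 read 9.61, 9.67 and 9.53 in tra1-2ts, against 9.09, 8.93 and 9.30 in wild type. COX12 read 10.09, 10.14 and 10.19 in tra1-2ts, against 9.71, 9.78 and 9.86 in wild type. Neither gene's groups overlapped, with differences of 0.49 ± 0.11 and 0.36 ± 0.09 (SE; limma adjusted p = 0.00804 and 0.0112). COX4, COX6, COX8, COX9 and COX13 did not pass, with differences from -0.17 for COX13 to 0.23 for COX4. For COX4 the 95% interval was 0.03 to 0.43, so a rise of the size of COX12's remained within it. The median of complex IV was 0.21.

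The ATP synthase has a soluble F1 head that makes ATP, a stalk, and a membrane part (Fo) that carries protons. In the F1 head, ATP1 and ATP3 were higher, and ATP2, ATP15 and ATP16 did not pass. ATP1, the alpha subunit, read 10.70, 10.57 and 10.70 in tra1-2ts, against 10.17, 10.05 and 9.86 in wild type. Its difference was 0.63 ± 0.10 (SE; 1.55-fold, limma adjusted p = 0.00180). ATP3, the gamma subunit that turns inside the head, read 8.80, 8.78 and 8.88 in tra1-2ts, against 8.50, 8.52 and 8.35 in wild type. It was 1.29-fold higher (limma adjusted p = 0.0115), and for both genes every tra1-2ts array was above every wild-type array.

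ATP2, the catalytic beta subunit, lay at the threshold. It read 7.41, 7.56 and 7.68 in tra1-2ts, against 7.35, 7.28 and 7.12 in wild type, a difference of 0.30 ± 0.11 (SE; limma adjusted p = 0.0511). The groups did not overlap, and the gap was 0.06 at 60 min and 0.56 at 120 min. The gene passed without the tra1-2ts 60 min array (limma adjusted p = 0.0368) or the wild-type 60 min array (0.0439). ATP15 (epsilon) and ATP16 (delta) differed by 0.11 and 0.03, with overlapping groups.

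In the stalk and membrane part 1 of the 7 genes in the list was higher and 1 lower (14.3% each), beside 18.3% and 22.3% of all genes. ATP7, subunit d of the peripheral stalk, read 7.03, 7.08 and 7.08 in tra1-2ts, against 6.24, 6.35 and 6.08 in wild type. This was the largest rise of the 37 genes, at 0.84 ± 0.10 (SE; 1.79-fold, limma adjusted p = 0.000365). ATP14, subunit h of the same stalk, read 7.29, 7.36 and 7.26 in tra1-2ts, against 7.60, 7.75 and 7.53 in wild type. It was 1.25-fold lower (limma adjusted p = 0.0239), so genes of 1 stalk moved in opposite directions. The second ATP14 probe set read 5.17, 5.09 and 4.97 in tra1-2ts, against 5.41, 5.24 and 5.34 in wild type, lower by 0.25 with no overlap, and missed the threshold (limma adjusted p = 0.0610). With the brighter set the ATP14 call ended without the tra1-2ts 60 min (limma adjusted p = 0.0592), tra1-2ts 90 min (0.0587), tra1-2ts 120 min (0.0732) or wild-type 90 min array (0.0797). ATP4, ATP5, ATP17, ATP18 and ATP20 did not pass, with differences from -0.06 for ATP17 to 0.22 for ATP18. TIM11, a membrane-part gene outside the list, was named after its value was seen. It differed by -0.23, lower at each time, and did not pass (limma adjusted p = 0.0681).

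INH1 encodes a small protein that binds F1 and stops it from hydrolysing ATP when the proton gradient is lost. It read 5.41, 5.26 and 5.55 in tra1-2ts, against 6.39, 6.28 and 6.09 in wild type. Every tra1-2ts array was below every wild-type array, and the gene fell by 0.85 ± 0.11 (SE; 1.80-fold lower, limma adjusted p = 0.000719). STF1, a related F1 inhibitor that was not in the list of 37, read 8.17, 7.89 and 8.01 in tra1-2ts, against 9.85, 9.66 and 9.67 in wild type. STF1 was 3.26-fold lower (limma adjusted p = 3.83e-05), so both inhibitor genes were lower. Of the 13 complex V genes, INH1 included, ATP1, ATP3 and ATP7 were higher, ATP14 was also lower, and 8 did not pass. STF2, which encodes a factor described with INH1 and STF1, differed by 0.03 and did not pass.

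Complex II, succinate dehydrogenase, which links the tricarboxylic acid cycle to the chain, had no gene past the test, beside 40.6% of all genes (limma). SDH2 was its only gene with an unadjusted p under 0.05 (0.0206). SDH2, the iron-sulfur subunit, read 8.17, 8.12 and 8.27 in tra1-2ts, against 8.09, 7.79 and 7.74 in wild type. The groups did not overlap, and the difference of 0.32 ± 0.11 (SE) missed the threshold (limma adjusted p = 0.0506). It passed when time was fitted as a paired block (limma adjusted p = 0.0479) and without the wild-type 60 min array (0.0107). SDH1, the flavoprotein, read 7.04, 6.97 and 7.34 in tra1-2ts, against 6.92, 6.91 and 7.12 in wild type, and its groups overlapped. SDH3, a membrane anchor, read 8.79, 8.80 and 7.92 in tra1-2ts, against 8.40, 8.33 and 8.23 in wild type. It was higher at 60 and 90 min and lower at 120 min, and without the tra1-2ts 120 min array it passed, at 0.47 (limma adjusted p = 0.0113). SDH4, the other anchor, differed by -0.09, with a 95% interval of -0.28 to 0.11.

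The electron carriers did not pass. NDI1, the matrix-facing NADH dehydrogenase, read 5.86, 5.78 and 5.86 in tra1-2ts, against 6.11, 5.89 and 5.80 in wild type. CYC1, the main cytochrome c, read 9.50, 9.49 and 9.31 in tra1-2ts, against 9.23, 9.39 and 9.38 in wild type. Both sets of arrays overlapped, and the 95% intervals were -0.34 to 0.14 for NDI1 and -0.12 to 0.32 for CYC1. Differences as large as that of RIP1 lie outside both intervals.

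Several of these genes have a related copy. CYC7, the minor cytochrome c of cells short of oxygen, differed by -0.08 and did not pass, so the opposite change seen for COX5A and COX5B was not called for CYC1 and CYC7. SHH3, a relative of SDH3, read 4.82, 4.44 and 4.87 in tra1-2ts, against 6.10, 5.45 and 6.03 in wild type. SHH3 was 2.21-fold lower with no overlap (limma adjusted p = 0.00164), while SDH3 did not pass. SHH4, a relative of SDH4, differed by -0.24 and did not pass (limma adjusted p = 0.0819), though it did without the wild-type 90 min array (0.0365).

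**Figure D3:**
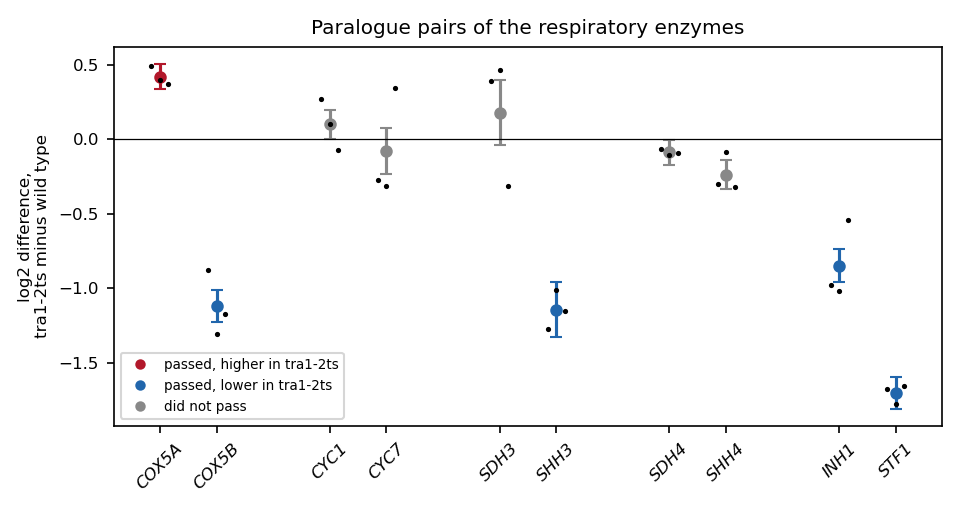
Log2 difference, tra1-2ts minus wild type, of 5 pairs of related genes (large points, mean difference; bars, limma's moderated standard error; small black points, the differences at 60, 90 and 120 min from left to right). COX5A lies above 0 at all 3 times and COX5B below it, and INH1 and STF1 both lie below 0.

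A further comparison followed how the genes behaved between 60 and 120 min at 37 °C. A slope over minutes shared by both strains was called for none of the 37 genes, beside 0.324% of all genes (limma, adjusted p under 0.05). At an unadjusted p under 0.05 there were 2 of 37 (5.41%), COR1 and SDH3, beside 16.2% of all genes. COR1 changed by -0.30 ± 0.10 per 60 min (SE; limma adjusted p = 0.221), being lower at each later time in both strains. SDH3 changed by -0.51 ± 0.20 (limma adjusted p = 0.269), with its lowest reading in the tra1-2ts 120 min array. ATP20, subunit g of the membrane part, had a slope of -0.24, and SDH1, QCR9 and COX12 had the rising slopes with the smallest p, at 0.25, 0.22 and 0.13.

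The difference of slopes between the strains was also called for none of the 37 genes and for 0% of all genes, in a fit with 2 residual degrees of freedom. At an unadjusted p under 0.05 there were 4 of 37 (10.8%), CYT1, ATP4, ATP2 and QCR10, beside 7.06% of all genes. For CYT1 the slope was 0.67 ± 0.21 per 60 min more positive in tra1-2ts (SE; limma adjusted p = 0.670). ATP4, subunit b of the peripheral stalk, read 7.29, 7.41 and 7.54 in tra1-2ts, against 7.48, 7.32 and 7.15 in wild type. Its readings were higher at each later time in tra1-2ts and lower at each later time in wild type, and the slopes differed by 0.59 ± 0.18 (limma adjusted p = 0.670). QCR10 had the opposite sign, with a slope difference of -0.46 ± 0.19 (limma adjusted p = 0.691), and SDH3 followed at -0.70 ± 0.34.

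By complex, the median strain difference was positive at each time in all 4 complexes. The median for complex II was 0.10, 0.19 and 0.07 at 60, 90 and 120 min, and for complex III 0.35, 0.37 and 0.47. For complex IV it was 0.23, 0.20 and 0.18, and for complex V 0.20, 0.09 and 0.27. Among the 5 F1 genes it was 0.06, 0.27 and 0.54, so this median was larger at the later times. Among the 7 stalk and membrane genes it was 0.29, 0.09 and 0.07, largest at 60 min. Single genes did not all follow these medians, with ATP1 at 0.54, 0.52 and 0.85 and ATP7 at 0.79, 0.73 and 1.00. In tra1-2ts 1 of the 5 F1 genes read lower at 120 than at 60 min, beside 53.3% of all genes. In wild type all 5 did, beside 50.6% of all genes. The median changes of the F1 genes were 0.13 in tra1-2ts and -0.24 in wild type. Each such value rests on 1 array per strain and time and was not tested. A fall at both steps was seen for 7 of 37 genes in tra1-2ts (18.9%), beside 27.2% of all genes, and for 10 of 37 in wild type (27.0%), beside 19.7%.

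**Figure D4:**
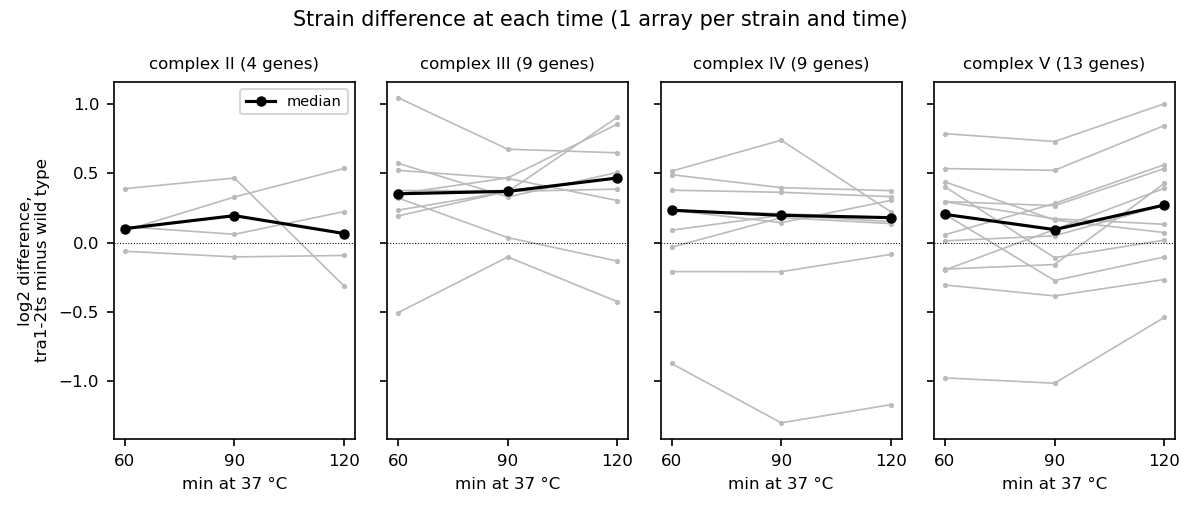
Log2 difference, tra1-2ts minus wild type, at 60, 90 and 120 min for the genes of complexes II, III, IV and V (grey lines, single genes; black line, median; 1 array per strain and time). The complex III median stays between 0.35 and 0.47, and COX5B and INH1 are the lowest lines of complexes IV and V at every time.

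Genes that work with the subunits gave mixed results, read against 40.6% of all genes called, 18.3% higher and 22.3% lower. Of 25 complex IV assembly genes 1 was higher and 5 were lower. COX19, an assembly factor thought to act in copper delivery, fell by 1.79, and its tra1-2ts mean of 3.79 lay under the mouse control level of 3.93. COX20, a chaperone of the mitochondrially encoded subunit 2, was 1.49-fold lower and PET54, an activator of COX3 translation, 1.45-fold lower (limma adjusted p = 0.00282 and 0.00389). COX16 was 1.25-fold higher (limma adjusted p = 0.0356), a call that ended without any of 4 arrays, with limma adjusted p of 0.0794 to 0.122.

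The heme lyases that finish the cytochromes moved in opposite directions. CYC3, which attaches heme to cytochrome c, read 9.65, 9.70 and 9.65 in tra1-2ts, against 10.74, 10.96 and 11.02 in wild type. It was 2.36-fold lower (limma adjusted p = 9.62e-05), while its substrate gene CYC1 did not pass. CYT2, which attaches heme to cytochrome c1, was 1.37-fold higher (limma adjusted p = 0.00773), as was its substrate gene CYT1. Of 16 genes listed under assembly of complexes II and III 4 were higher and 2 lower. The 2 lower genes were CBP4 and CYC3, of which CYC3 acts on cytochrome c. The complex III assembly gene CBP4 was 1.74-fold lower (limma adjusted p = 0.00186), and the rises of CBP2 and TCM62 were of signals under the mouse control level.

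For complex V 1 of 12 assembly genes was higher and 2 were lower. NCA3, described as a regulator of mitochondrially encoded ATP synthase subunits, fell 4.59-fold (limma adjusted p = 2.71e-05). ATP12, a chaperone that F1 assembly needs, was 1.43-fold lower, and ATP25, which stabilises the mitochondrial OLI1 mRNA, was 1.38-fold higher (limma adjusted p = 0.00413 and 0.00270). In ubiquinone synthesis 2 of 10 genes were higher, COQ5 by 0.40 and COQ11 by 0.35. COQ5 ended its call without the tra1-2ts 90 min array (limma adjusted p = 0.0705) and COQ11 without the wild-type 60 min or any tra1-2ts array (0.0653 to 0.0903). Of 6 other dehydrogenases that feed the chain 2 were lower, the lactate dehydrogenase genes CYB2 (1.96-fold, limma adjusted p = 0.00995) and DLD1 (1.59-fold, 0.0402). DLD1 ended its call without any of 4 arrays (0.0850 to 0.120).

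The mitochondrially encoded subunits gave only background signals. COX1, COX2, COX3 and OLI1 read 1.84 to 2.80 in tra1-2ts and 2.23 to 2.89 in wild type, under the mouse control level. COX1 fell by 0.33 by the test (limma adjusted p = 0.0434), within signals of that low level, and the call ended without any 1 of 5 arrays.

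Among regulators 1 of 15 genes was higher and 4 were lower, beside 18.3% and 22.3% of all genes. ROX1, the repressor of hypoxic genes, read 7.22, 7.59 and 7.22 in tra1-2ts, against 6.76, 6.84 and 6.43 in wild type. It was 1.59-fold higher with no overlap (limma adjusted p = 0.00648). HAP5, a subunit of the CCAAT-binding activator, read 5.09, 5.26 and 4.91 in tra1-2ts, against 5.78, 5.68 and 5.76 in wild type, and was 1.57-fold lower (limma adjusted p = 0.00175). HAP4, the activating subunit of the same complex, read 8.78, 8.56 and 8.52 in tra1-2ts, against 9.41, 8.93 and 8.78 in wild type.

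HAP4 was lower in tra1-2ts at each time, by 0.63, 0.37 and 0.26 at 60, 90 and 120 min, and did not pass (limma adjusted p = 0.0664). It passed when time was fitted as a paired block (0.0137) and without the wild-type 120 min array (0.0293). HAP1 differed by 0.49 and did not pass (limma adjusted p = 0.0920), though it did with the block (0.0320). It passed in 4 of 17 alternatives. The HAP1 probe set has the suffix _f_at in place of a plain _at, and whether it reads HAP1 alone was not tested. HAP2 and HAP3 differed by 0.22 and 0.01. MIG1, a glucose repressor, fell 1.85-fold (limma adjusted p = 0.000389), and SNF1, the kinase that opposes it, fell 1.24-fold (0.0354), a call that ended without any 1 of 5 arrays (0.0628 to 0.123). Of the HAP genes, HAP5 was thus called lower and HAP4 read lower without passing, while HAP1, HAP2 and HAP3 had positive differences that did not pass. Of the 37 genes, 29 had positive differences and 12 were called higher. Whether these regulators bear on the subunit genes was not tested.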

How the data were processed

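Per the labels' protocols, a 3' IVT (in vitro transcription) kit turned total RNA into biotin-labelled targets for 1-colour arrays. The authors deposited 1 log2 value per probe set and array, made with RMA in the R package oligo per the submitters' processing notes; versions and genome build are not given in the sources used here. Of 6776 probe sets, 5668 name 1 gene, 183 several and 925 none; all 5668 matched RefSeq's R64 table by gene ID. The brightest set per gene left 5551 genes. Columns of other samples numbered 0. All 37 genes of interest had a probe set with a plain suffix, and none was removed by a filter.

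limma 3.58.1 in R 4.3.3 was fitted over all genes (lmFit, eBayes, two-sided, Benjamini-Hochberg): strain alone (4 residual degrees of freedom), strain plus a linear slope over minutes, and a slope per strain. Scripts were tested on simulated data. The isoform ratio and second probe sets used exact permutation over arrays. The few arrays, and the use of 3 times as replicates, limit precision. Per the labels, equal replicate numbers mark equal times; the pairs' deviations from strain means correlated with r across genes of 0.31, 0.07 and 0.33 at 60, 90 and 120 min. Fitting time as a block was an alternative. Members, gene lists and the rule for naming genes (members past the test, the 2 smallest p per complex, up to 3 other genes per list and direction, HAP1 to HAP5, ROX1 and TRA1, and the smallest slope p) were chosen with earlier results of these data known; array values of other members, the ATP2 slope, CYC7, SHH4 and STF2 were named after their values were seen. Sequences were not used here.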

Additional observations from a re-analysis of the deposited data

How the results depend on the processing

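With the time point as a paired replicate block, 18 of the 37 genes passed, 14 higher and 4 lower. Of all genes 45.4% passed in this setting, in place of 40.6%. The COX5B to COX5A shift stayed at -1.54. SDH2 and COR1 were gained, and no respiratory subunit gene lost its call. Outside the 37, HAP1 and HAP4 were among the genes gained. The count of lower genes was 2 at an adjusted p under 0.01 and 2 without both 60 min or both 120 min arrays, in place of 4. Over all genes 808, 1174 and 999 were lower in these settings, in place of 1237. Without both 90 min arrays 8 genes passed, 5 of them higher, and 1004 of all genes passed in place of 2251, with fewer arrays in the fit; at an adjusted p under 0.01 all calls numbered 1384. With 1 array left out, the 37 gave 14 to 18 calls, 11 to 15 higher and 2 to 3 lower. Of all genes 28.1% to 39.9% were called in these fits, and the shift of the ratio ran from -1.64 to -1.49. The median differences of complexes II, III, IV and V were 0.16, 0.43, 0.21 and 0.11. With quantile normalization they were 0.23, 0.49, 0.28 and 0.21, and with array medians centred 0.20, 0.48, 0.25 and 0.16. Leaving out 1 array gave 0.11 to 0.17 for complex II, 0.40 to 0.44 for III, 0.17 to 0.23 for IV and 0.09 to 0.20 for V. With the tra1-2ts 120 min array left out the complex V median was 0.20, with the wild-type 90 min array left out 0.18, and with both 90 min arrays left out 0.21, each over 1.5 times the value from all arrays. The cause was not tested. All stayed positive. Over 666 single-gene values for the 37, 606 kept their side of the threshold, 31 lost and 29 gained a call, and none reversed. No time slope or slope difference was called for the 37 in any alternative run. RIP1, QCR6, QCR9, COX5B, ATP1, ATP7 and INH1 kept their calls in all 17 alternatives at 0.05.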

Other observations

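Among the 37 genes the strain difference showed little relation to log2 gene length (Pearson's r = 0.08, Spearman's rho = 0.07, n = 37 genes) or to the wild-type signal (r = 0.26, rho = 0.17). These are descriptions across genes measured on the same 6 arrays, and genes are not independent replicates. Median gene length was 453 bases for the 12 higher genes, 459.5 for the 4 lower ones and 468 for the 21 that did not pass.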
